A study of Mus musculus with 4 samples.

Results

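Galectins are lectins that bind galactose-bearing glycans. The 6 galectin genes described here, Lgals1, Lgals2, Lgals3, Lgals4, Lgals8 and Lgals9, were taken by symbol from the 34866 genes of a count table of mouse stomach. All 6 were found, and all 6 passed the filter on low counts that left 14067 genes for testing. The samples were gastric mucosa of the corpus, the acid-secreting main part of the stomach, with 2 libraries from wild-type mice (Muc6 +/+) and 2 from mice that lack the gene (Muc6 -/-, here knockout). Muc6 encodes a gel-forming mucin secreted by gastric glands, and the study was set up to look at its link with gastric carcinogenesis. Age, sex and strain background were not given in the labels, and neither was whether the libraries of a genotype stem from different animals, so the p-values measure a spread between samples that may be only technical.

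Galectins are made in the cytosol, leave the cell without a signal peptide, and cross-link glycoproteins and glycolipids that carry galactose, often as N-acetyllactosamine chains. Lgals1 and Lgals2 encode prototype galectins, which pair up as dimers. Lgals3 encodes the chimera galectin, whose recognition domain is joined to a flexible tail through which it oligomerises. Lgals4, Lgals8 and Lgals9 encode tandem-repeat galectins, in which a pair of recognition domains is held together by a linker. In the gut Lgals2, Lgals3 and Lgals4 are best known from epithelium, Lgals1 from stroma and Lgals9 from epithelium and immune cells.

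The libraries held between 20327745 and 27946423 counts. Muc6 had 8542 counts in wild type 1, 6000 in wild type 2, 0 in knockout 1 and 10 in knockout 2, so the targeted gene followed the labels. The libraries differed in more than Muc6. The 4 Y-linked genes measured summed to 121 to 136 CPM (counts scaled to a library size of 1e6) in wild type and to 1.43 to 2.44 CPM in knockout, and mitochondrial transcripts took 8.73% to 9.39% of the counts in wild type and 5.41% to 5.97% in knockout. The second library of each genotype held more stroma: the sum of 10 fibroblast markers was 56.9 CPM in wild type 1 against 559 in wild type 2, and 77.2 in knockout 1 against 500.1 in knockout 2. Parietal cell markers, led by the proton pump genes Atp4a and Atp4b, summed in wild type to 19166 and 18226 CPM, and in knockout 1 and 2 to 2167 and 6598 CPM, with none of the 12 at 0 in any library. Genotype cannot be told apart from Y-linked expression, or from a difference in sex that goes with it, in any comparison below.

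Across all genes, edgeR's quasi-likelihood test called 0 of 14067 genes at an adjusted p of 0.05 (0% of those tested) and DESeq2 called 1044 (7.42%). At an unadjusted p under 0.05 edgeR had 2236 genes (15.9%). Of the 6 galectins, edgeR called 0, DESeq2 called 1 (Lgals3, among the 4.06% of genes it called higher, with 3.36% called lower), and 1 (Lgals3) had an unadjusted p under 0.05 by edgeR. The genotypes did not overlap in 3 of the 6, with Lgals3 and Lgals4 higher and Lgals8 lower in knockout. Of all genes tested, 50.1% did not overlap, 26.3% being higher and 23.8% lower, so that a count of 3 in 6 lay at the background. The median log2 fold change was -0.19 over the 6 galectins, 2 of them higher and 4 lower. Over all genes tested it was -0.0017, with 49.9% of them higher. In bulk tissue such as this, fewer cells of a type and less RNA per cell cannot be told apart.

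The levels of different galectins can be compared only per length, here as CPM per kilobase of exon. Lgals2 was the most abundant of the 6 in each library, at 1492 and 1051 CPM per kilobase in wild type 1 and 2 and at 1173 and 1351 in knockout 1 and 2. On this scale it stood above at least 99.7% of the genes tested in each library. In wild type the order below it was Lgals9 (282 ± 125 CPM per kilobase, SD, n = 2), Lgals4 (134 ± 53.1), Lgals1 (43.8 ± 9.33), Lgals3 (19.6 ± 7.22) and Lgals8 (11.9 ± 2.24), and no neighbours in that order overlapped in range. With the longest transcript as the length, Lgals9 in wild type 2 (261 CPM per kilobase) fell below Lgals4 in wild type 1 (287), so those ranges overlapped, but the order within each library was the same. In knockout Lgals4 came next to Lgals2 (361 ± 248 CPM per kilobase, SD, n = 2), followed by Lgals9 (198 ± 72.6), Lgals3 (124 ± 70.5), Lgals1 (23.1 ± 20.8) and Lgals8 (9.23 ± 0.997). There the ranges of Lgals4 and Lgals9, of Lgals9 and Lgals3, and of Lgals1 and Lgals8 overlapped, so the means of these pairs were not ordered beyond their spread. Within each knockout library the order Lgals2, Lgals4, Lgals9, Lgals3 was nevertheless the same with either length, and Lgals1 and Lgals8 changed places.

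The make-up of the family followed from these levels. Lgals2 gave 70.7% and 74.2% of the summed level per kilobase of the 6 genes in wild type 1 and 2, and 54.6% and 74.9% in knockout 1 and 2. Lgals3 gave 1.17% and 1.02% in wild type against 8.09% and 4.11% in knockout. Lgals4 gave 8.15% and 6.82% in wild type against 24.9% and 10.3% in knockout, while Lgals9 gave 17.6% and 13.7%, and 11.6% and 8.12%. Both knockout libraries thus held larger shares of Lgals3 and Lgals4 and smaller shares of Lgals9 than either wild-type library. The summed level of the 6 was 2109 and 1417 CPM per kilobase in wild type and 2150 and 1803 in knockout, so the totals of the genotypes overlapped. With 2 libraries against 2 an exact two-sided permutation test of a single value cannot give a p below 0.33, and none was run on shares or totals.

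**Figure D1:**
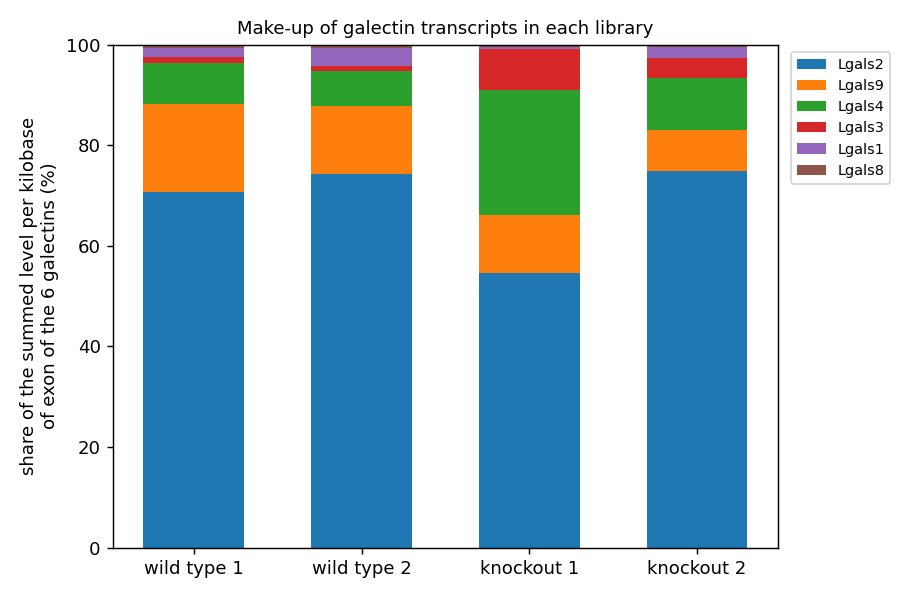
Stacked bars give, for each of the 4 libraries, the share (%) of each galectin in the summed level per kilobase of exon of the 6 genes. Lgals2 makes up 54.6% to 74.9% of each bar, and the Lgals3 and Lgals4 parts are larger in both knockout libraries than in either wild-type library.

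Lgals3 and Lgals4 were the galectins whose levels were higher in both knockout libraries than in both wild-type libraries. For reference, the 250 bases before their RefSeq starts (GRCm38.p6, the assembly of mm10) are shown because these were the members that lay higher together. Lgals3 (ENSMUSG00000050335.17) lies at chr14:47367751-47386160 on the plus strand, and its window is chr14:47373610-47373859. Lgals4 (ENSMUSG00000053964.17) lies at chr7:28833854-28841708 on the plus strand, and its window is chr7:28833544-28833793. Both are written 5′ to 3′ on the plus strand, and capitals mark matches to the motifs searched.
Lgals3: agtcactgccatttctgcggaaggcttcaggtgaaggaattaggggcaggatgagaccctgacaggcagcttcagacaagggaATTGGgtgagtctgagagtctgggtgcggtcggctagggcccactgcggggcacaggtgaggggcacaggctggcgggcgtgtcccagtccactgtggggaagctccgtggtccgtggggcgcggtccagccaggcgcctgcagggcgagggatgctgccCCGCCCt
Lgals4: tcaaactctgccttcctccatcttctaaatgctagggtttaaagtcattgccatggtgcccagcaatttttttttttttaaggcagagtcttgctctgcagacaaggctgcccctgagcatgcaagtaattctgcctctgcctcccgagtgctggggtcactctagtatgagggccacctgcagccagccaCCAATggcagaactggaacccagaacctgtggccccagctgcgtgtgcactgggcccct
The motifs were the GC box GGGCGG, the TATA box TATAAA, the CCAAT box CCAAT, the AP-1 element TGANTCA and the E-box CACGTG, each searched on both strands. The Lgals3 window held a GC box on the minus strand that began 7 bases before the start and a CCAAT box on the minus strand 167 bases before it. The Lgals4 window held a CCAAT box on the plus strand 59 bases before the start and no other match. Of 32851 RefSeq windows of the same length, 32.7% held a GC box, 33.8% a CCAAT box, 12.4% a TATA box, 6.75% an AP-1 element and 6.02% an E-box. The windows also differed in base composition, with 66% G and C and 13 CpG in Lgals3, 53.6% and 2 CpG in Lgals4, and medians of 52.4% and 6 CpG over all windows. RefSeq windows were found for 5 of the 6 galectins, all but Lgals1. The Lgals2 and Lgals9 windows matched none of the motifs, and the Lgals8 window matched the CCAAT box at 2 places.

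Lgals3, the chimera galectin, showed the largest difference between the genotypes among the 6. The wild-type libraries 1 and 2 held 1138 and 517 counts and the knockout libraries 1 and 2 held 7204 and 3332, or 45.9, 26.9, 323 and 138 CPM. Both knockout libraries lay above both wild-type libraries, the first of each genotype being the higher. Wild type had a mean of 36.4 ± 13.4 CPM and knockout one of 230 ± 131 CPM (SD, n = 2 per group), 6.32 times as high, with a log2 fold change of 2.66 ± 0.56 (SE). edgeR gave an adjusted p of 0.226 and DESeq2 one of 2.0e-05. Of all genes tested, 1.56% had a log2 fold change at least as large. A fit without a library leaves 1 library in that genotype, and its SE and p then rest on the spread of the other genotype's pair alone. Leaving out knockout 2 gave 3.10 ± 0.34 with an adjusted p of 0.0396 by edgeR, in a fit that called 851 of 14672 genes (5.8%), and leaving out knockout 1 gave 1.88 ± 0.34 with an adjusted p of 0.220. Per kilobase of exon, Lgals3 stood above 88.0% and 82.2% of tested genes in wild type 1 and 2 and above 98.4% and 96.6% in knockout 1 and 2.

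Lgals4 encodes a tandem-repeat galectin of gut epithelium known to bind sulfated glycolipids and to take part in apical sorting. The wild-type libraries 1 and 2 held 9860 and 4296 counts and the knockout libraries 1 and 2 held 27676 and 10396, or 398, 224, 1241 and 429 CPM. Knockout 1 stood far above the other libraries, and knockout 2 lay 0.47 log2 units above the wild-type mean but close to wild type 1. Its log2 fold change of 1.43 ± 0.64 (SE, n = 2 per group) had an adjusted p of 0.382 in edgeR and of 0.121 in DESeq2. Of all genes tested, 4.85% had a log2 fold change at least as large. Without knockout 1 it was 0.43 ± 0.39 (edgeR adjusted p = 0.737) and without knockout 2 it was 1.95 ± 0.39 (edgeR adjusted p = 0.0869), so its size turned on knockout 1. Lgals7, the galectin of stratified squamous epithelium, lies 22144 bases further along chromosome 7 and had 21, 11, 34 and 12 counts in the 4 libraries in the same order, with overlap between the genotypes.

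**Figure D2:**
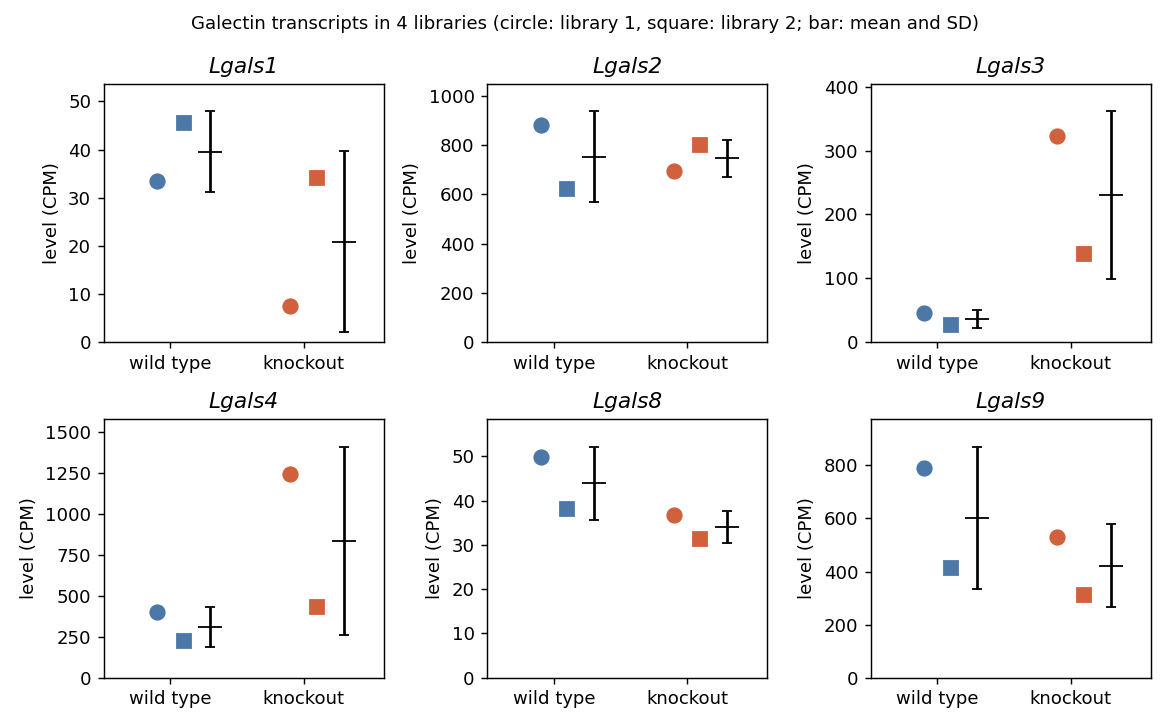
Each panel plots the level (CPM, linear axis from 0) of a galectin in the 4 libraries, with circles for library 1 and squares for library 2 of each genotype, and the mean with its SD (n = 2) beside them. Lgals3 runs from 26.9 to 45.9 CPM in wild type and from 138 to 323 CPM in knockout, while Lgals2 and Lgals9 overlap between the genotypes.

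Some genes listed as markers of other epithelia were, like Lgals3 and Lgals4, higher in knockout. The intestinal list (12 markers, led by Krt20 and the alkaline phosphatase gene Alpi) reached 227 and 132 CPM in wild type against 1994 and 480 CPM in knockout 1 and 2. In wild type 1 and 2, most of the sum came from Krt20, at 87.8 and 41.2 CPM, and Vil1, at 64.8 and 39.5 CPM. Both were thus present in wild-type corpus, and the sum does not mark intestinal cells alone. The squamous forestomach list of 11 markers summed to 77.6 and 33.8 CPM in wild type against 835 and 177 CPM in knockout, with its defining markers Trp63, Sprr3 and Krtdap at 0 in all 4 libraries. Most of each sum came from Ly6d, at 42.8 and 14.2 CPM against 525 and 138 CPM, and Sprr1a, at 33.9 and 19.3 CPM against 153 and 26.5 CPM. Sprr1a overlapped between the genotypes, and the other 5 of the 6 tested members of this list were higher in knockout without overlap. The intestinal and squamous sums, like Lgals3 and Lgals4, were highest in knockout 1 and second highest in knockout 2. The intestinal list had 1 to 2 members at 0 in each library and the squamous list 3 to 8. Those of the intestinal list were Cdx1, with 1, 0, 0 and 0 counts in wild type 1 and 2 and knockout 1 and 2, and Cdx2, with 0, 0, 9 and 0. Of its 10 tested members 8 were higher in knockout without overlap, while Fabp1 and Cdh17 overlapped. Of all genes tested, 26.3% were higher without overlap. A list of 7 genes taken as markers of the antrum, the stomach region below the corpus, also differed. Led by Gkn3 and Chga, it summed to 219 and 536 CPM in wild type against 859 and 940 CPM in knockout 1 and 2. It had 0 to 1 members at 0. Of its 5 tested members DESeq2 called 3 higher, beside 4.06% of all genes, and edgeR called 0. The gastrokine Gkn3 had levels of 9.28 and 25.9 CPM in the wild-type libraries and of 613 and 731 CPM in the knockout libraries (log2 fold change 5.26 ± 0.65, DESeq2 adjusted p = 1.9e-20). Gkn3 alone thus made up most of the antral sum in both knockout libraries, so the sum there mainly followed Gkn3 and not the list as a whole. In the same order, the transcription factor gene Pdx1 had 0.282, 0.0521, 59.0 and 2.52 CPM and Nkx6-3 had 0.363, 0.313, 122 and 0.454 CPM, both thus high in knockout 1. So were Gast, with 1, 0, 218 and 0 counts, and Onecut2, with 6, 8, 532 and 1 counts, neither of which passed the filter. The endocrine marker Chga lay the other way, at 120 and 292 CPM against 10.2 and 72.3 CPM. Sst had a lower mean in knockout but overlapped, at 88.5 and 217 CPM against 20.7 and 133 CPM. Macrophages are a known source of Lgals3 in many tissues, and their 12 markers, led by Lyz2 and Ctss, summed to 19.3 and 102 CPM in wild type against 20.8 and 47.7 CPM in knockout, with none at 0. The part of these cells in the levels of Lgals3 and Lgals4 was not tested.

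Lgals2, the most abundant galectin of this tissue, encodes a prototype galectin of gastric and intestinal epithelium. The wild-type libraries 1 and 2 held 21889 and 11948 counts and the knockout libraries 1 and 2 held 15488 and 19362, or 883, 622, 694 and 799.6 CPM. The wild-type libraries enclosed the knockout libraries. edgeR put the log2 fold change at -0.01 ± 0.28 (SE, 2 libraries per group) with an adjusted p of 0.990, and it ran from -0.25 to 0.27 when each library was left out in turn. Over the same libraries the pit cell list, marking the surface epithelium, had summed levels of 120972 and 81135 CPM in the wild-type libraries against 69876 and 55597 CPM in the knockout libraries, led by Gkn2 and Gkn1, and none of its 10 measured members was at 0. Lgals2 lies at chr15:78850860-78855529 on the minus strand, and its last 38 bases overlap Cdc42ep1 on the opposite strand.

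Lgals1, the other prototype galectin, is known as a product of stromal and endothelial cells that binds extracellular matrix and T cell glycoproteins. It lies 71195 bases from Lgals2 on chromosome 15, at chr15:78926725-78930465 on the plus strand. The wild-type libraries 1 and 2 held 832 and 873 counts and the knockout libraries 1 and 2 held 169 and 826, or 33.6, 45.5, 7.58 and 34.1 CPM. Knockout 1 alone was low, and knockout 2 lay between the wild-type libraries. Its log2 fold change of -0.92 ± 0.75 (SE, n = 2 per group) had an adjusted p of 0.624 in edgeR and of 0.601 in DESeq2, and 8.55% of all genes tested had one as low or lower. Without knockout 2 it was -2.44 ± 0.31 (edgeR adjusted p = 0.0474, with the spread taken from the wild-type pair alone) and without knockout 1 it was -0.27 ± 0.27 (edgeR adjusted p = 0.787). The fibroblast list summed to 56.9 and 559 CPM in wild type against 77.2 and 500.1 CPM in knockout, lower in the first library of each genotype. The endothelial list summed to 9.68 and 79.7 CPM in wild type against 20.4 and 50.6 CPM in knockout, also lower in the first library of each genotype. So was the smooth muscle list, led by Myh11 and Tagln, at 337 and 2088 CPM against 451 and 2169 CPM, and none of the 8 members of either list was at 0. The parietal cell sum was lowest in knockout 1, as Lgals1 was. In knockout 2 that sum was 6598 CPM, below the 19166 and 18226 CPM of wild type, while Lgals1 lay between the wild-type libraries. The part of any of these cells in the level of Lgals1 was not tested. The processed pseudogene Lgals1-ps2, which could share its reads, had 0, 2, 0 and 1 counts.

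Lgals9 encodes a tandem-repeat galectin whose transcription is known to respond to interferon, and lies at chr11:78962974-78984946 on the minus strand. The wild-type libraries 1 and 2 held 19634 and 7945 counts and the knockout libraries 1 and 2 held 11867 and 7571, or 792, 414, 532 and 313 CPM. The first library of each genotype was the higher, and the genotypes overlapped. edgeR put the log2 fold change at -0.51 ± 0.46 (SE, 2 libraries per group) with an adjusted p of 0.660, and without wild type 1 it was 0.035 ± 0.50 (edgeR adjusted p = 0.984), while it ran from -0.98 to -0.22 without each of the other libraries. Among the immune cells known to make galectin-9, the 10 T and NK cell markers, led by Cd4 and Cd8a, summed to 2.30 and 3.85 CPM in wild type against 1.21 and 2.48 CPM in knockout, with 0 to 1 members at 0. Only 1 of these 10, Cd4, passed the filter on low counts, so the sums rest on few counts. The 8 B and plasma cell markers, led by Xbp1 and Sdc1, which epithelium also expresses, summed to 574 and 559 CPM against 600.04 and 582 CPM, with 0 to 2 members at 0. Xbp1 and Sdc1 made up most of each sum. Jchain, the remaining tested member, was at 3.47 and 49.4 CPM in wild type against 6.95 and 20.2 CPM in knockout, higher in the second library of each genotype. The part of these immune cells in the level of Lgals9 was not tested. Lgals3bp, whose product is a secreted glycoprotein bound by galectin-3 and is also known to respond to interferon, stood at 457 and 193 CPM in wild type 1 and 2 against 441 and 180.5 CPM in knockout 1 and 2, a log2 fold change of -0.07 ± 0.64 (edgeR adjusted p = 0.977). For Lgals9 and Lgals3bp the gap between libraries of a genotype was thus larger than that between genotypes.

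**Figure D3:**
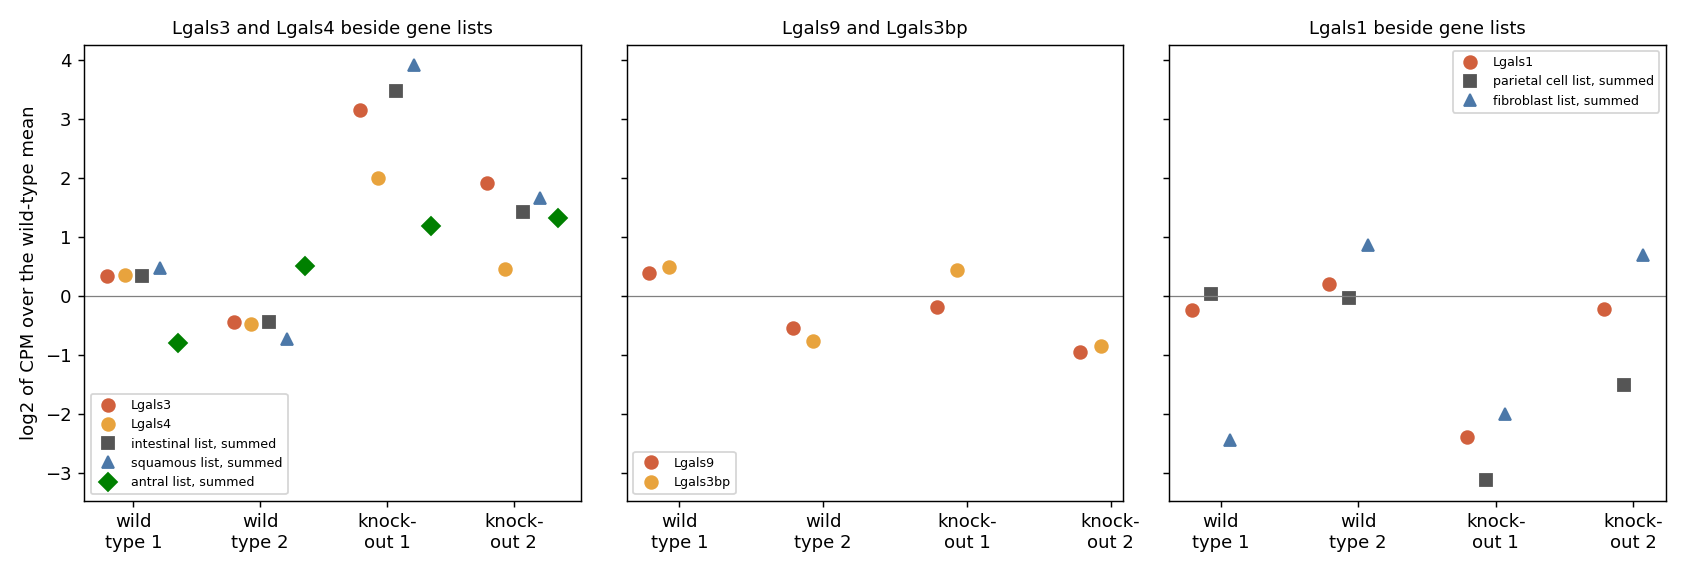
Points give the log2 ratio of each library to the wild-type mean in CPM, for galectin genes (circles) and for summed gene lists (squares, triangles and diamonds). Lgals3, Lgals4 and the intestinal and squamous sums are highest in knockout 1. The antral sum, most of it Gkn3 in both knockout libraries, is highest in knockout 2. Lgals9 and Lgals3bp are higher in the first library of each genotype, and Lgals1 is lowest in knockout 1.

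Lgals8, the scarcest of the 6 in wild type, encodes a tandem-repeat galectin known to mark damaged vesicles for autophagy. The wild-type libraries 1 and 2 held 1233 and 731 counts and the knockout libraries 1 and 2 held 817 and 761, or 49.7, 38.1, 36.6 and 31.4 CPM. Both knockout libraries lay below both wild-type libraries, by a margin of 38.1 against 36.6 CPM. Its log2 fold change of -0.37 ± 0.19 (SE, 2 libraries per group) had an adjusted p of 0.442 in edgeR and of 0.560 in DESeq2. It was -0.16 ± 0.23 without wild type 1 and -0.56 ± 0.22 without wild type 2 (edgeR adjusted p = 0.832 and 0.728), so its size turned on which wild-type library was kept. Lgals8 lies at chr13:12439415-12464944 on the minus strand, and 875 of its bases overlap Heatr1 on the opposite strand, which had 532, 338, 521 and 476 counts. Whether counting used strand is not given in the sources used here, so reads in the shared stretch may belong to either gene.

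**Figure D4:**
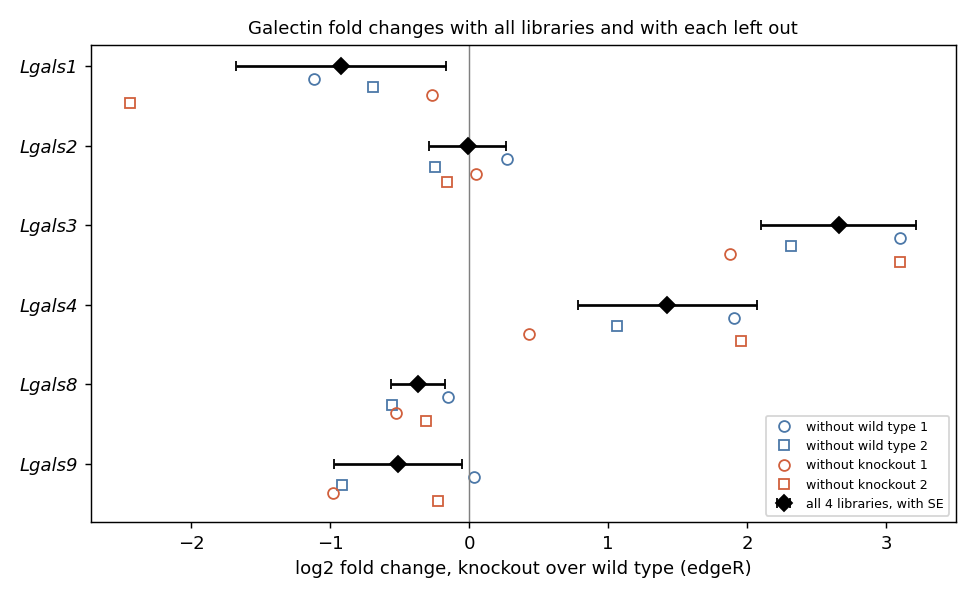
Diamonds give the log2 fold change of each galectin, knockout over wild type, with its SE from edgeR on all 4 libraries, and open symbols give the value with a library left out. Lgals3 stays between 1.88 and 3.10, Lgals1 moves from -0.27 to -2.44 with the knockout library kept, and Lgals2 and Lgals9 cross 0.

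The 4 other galectin-related genes that passed the filter, Lgals3bp, Lgals7, Lgals12 and Lgalsl, overlapped between the genotypes, and neither tool called any. Of all genes tested, 50.1% did not overlap, and edgeR called 0% and DESeq2 7.42%. Lgals12, known from adipocytes, was at 38.4 and 27.8 CPM in wild type against 51.5 and 30.4 CPM in knockout (a log2 change of 0.30 ± 0.33). The galectin-like gene Lgalsl was at 78.7 and 58.0 CPM against 96.2 and 48.9 CPM (0.09 ± 0.39). Grifin, the lens member of the family, had 0 counts in each library, and a count of 0 cannot show a level under about 3 counts.

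**Figure D5:**
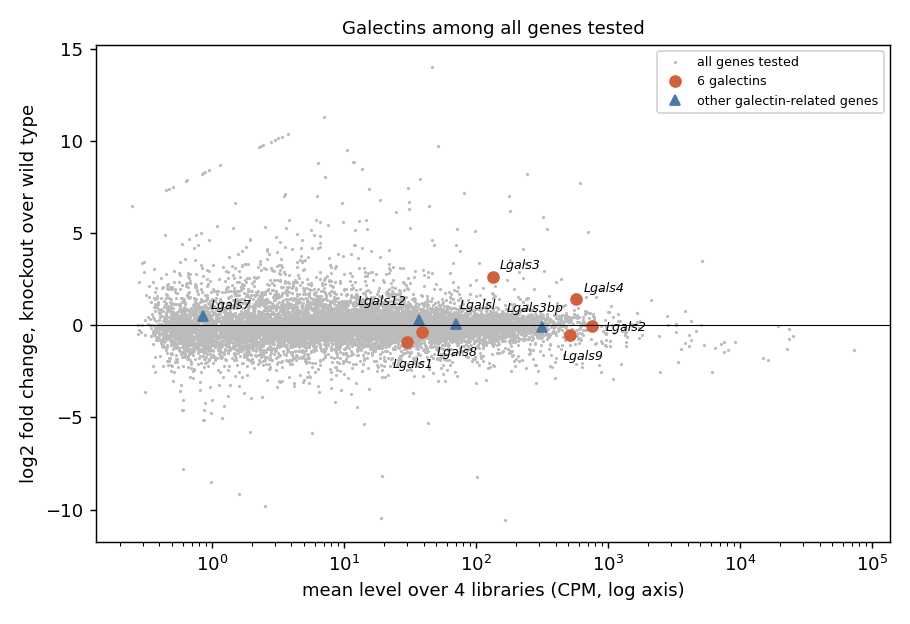
Each point is a gene tested, with its mean level over the 4 libraries (CPM, log axis) against its log2 fold change, knockout over wild type. Of the 6 galectins (circles), Lgals3 lies at 2.66 and Lgals4 at 1.43, and the other 4 and the galectin-related genes (triangles) lie between -0.92 and 0.50.

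The enzymes that build the glycans galectins bind went both ways. Of 16 tested genes for galactose transfer and N-acetyllactosamine extension, 8 were higher and 8 lower in knockout, with a median log2 fold change of -0.01. edgeR called 0 of them, and DESeq2 called 1, a share like the 7.42% of all genes. This was the extension enzyme gene B3gnt8, at 3.55 and 4.22 CPM in wild type against 0.807 and 1.20 CPM in knockout (a log2 change of -1.95 ± 0.47, DESeq2 adjusted p = 0.0316). The members with the highest mean CPM over the 4 libraries, not scaled by length, were B3gnt3, C1galt1 and B4galt1. B3gnt3 had a log2 fold change of 0.16 ± 0.35, and C1galt1, which makes the core of mucin O-glycans, one of -0.11 ± 0.22. The main galactosyltransferase gene B4galt1 was at 232 and 176 CPM in wild type against 149 and 146 CPM in knockout (-0.47 ± 0.21, edgeR adjusted p = 0.376). Of 10 genes listed as branching enzymes 8 were higher, beside 49.9% of all genes tested, with a median log2 fold change of 0.30. Neither tool called any of the 10, and over all genes edgeR called 0% and DESeq2 7.42%. Among the listed genes Gcnt3, which makes branched O-glycans, was at 522 and 373 CPM against 730 and 380 CPM (0.31 ± 0.41). Mgat3 had a log2 fold change of 0.11 ± 0.37 and Mgat4a one of 0.47 ± 0.42.

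Enzymes that cap galactose change what galectins can bind. The list of them also holds Ugt8a, which is no cap but makes galactosylceramide, the precursor of sulfatide. Of 11 tested, 5 were higher and 6 lower (median -0.16), edgeR called 0, and DESeq2 called 3 higher and 1 lower, beside 4.06% and 3.36% of all genes. The called genes were Abo, the blood group transferase (log2 fold change 4.84 ± 0.52, DESeq2 adjusted p = 2.2e-10), Ugt8a (2.68 ± 0.29, DESeq2 adjusted p = 3.5e-07), and the sialyltransferases St3gal4 (1.70 ± 0.23, DESeq2 adjusted p = 6.0e-05) and St3gal1 (-1.63 ± 0.52, DESeq2 adjusted p = 0.0492). Ugt8a was at 2.06 and 1.93 CPM in wild type against 14.9 and 10.7 CPM in knockout, St3gal4 at 10.1 and 13.8 CPM against 43.2 and 34.4 CPM, and St3gal1 at 23.5 and 25.8 CPM against 4.30 and 11.6 CPM. The caps with the highest mean CPM were Fut2 (0.38 ± 0.32), Gal3st1, which turns galactosylceramide into sulfatide (0.12 ± 0.29), and St3gal6 (-0.44 ± 0.15), none of them called by either tool.

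Of 24 glycoproteins known to bind galectins, 14 were higher and 10 lower in knockout (median 0.09). edgeR called 0, and DESeq2 called 3, all higher, beside 4.06% of all genes. These were the transferrin receptor gene Tfrc, at 86.8 and 62.1 CPM in wild type against 499 and 651 CPM in knockout (a log2 change of 2.95 ± 0.30), Cd44 (2.99 ± 0.75) and the brush border peptidase gene Dpp4, at 1.45 and 1.93 CPM against 14.5 and 6.65 CPM (2.65 ± 0.51). The members of this list with the highest mean CPM, Cdh1 (0.24 ± 0.36), Muc1 (-0.04 ± 0.32) and Bsg (-0.27 ± 0.23), were called by neither tool. Havcr2, a T cell surface protein known to bind galectin-9, was at 0.524 and 1.15 CPM against 0.493 and 0.619 CPM. Of 11 tested genes that handle damaged vesicles or endosomes together with galectins, 3 were higher and 8 lower (median -0.11). None was called by either tool, beside 0% of all genes by edgeR and 7.42% by DESeq2. Of the 11, those with the highest mean CPM were Sqstm1 (0.05 ± 0.19), Pdcd6ip (0.31 ± 0.31) and Tax1bp1 (-0.12 ± 0.21).

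The genes whose profile lay nearest to each galectin were found by the Euclidean distance between mean-centred log2 CPM profiles over the 4 libraries, among 8472 other protein-coding genes with a mean of at least 10 CPM over the 4 libraries. The 4 libraries are few, and the distances are a description. Nearest to Lgals3 were Ankrd35 (distance 0.20 log2 units), at 7.66 and 4.38 CPM in wild type against 45.7 and 20.6 CPM in knockout, and Tm4sf5 (0.22), at 20.1 and 11.0 CPM against 154 and 69.1 CPM. Nearest to Lgals4 were the hemidesmosome integrin gene Itgb4 (0.23) and Rab11fip4 (0.26). Nearest to Lgals9 were Pmaip1 (0.17) and the MHC class I light chain gene B2m (0.19), the latter at 376 and 180.3 CPM in wild type against 262 and 131 CPM in knockout. Lgals1 lay nearest to Gramd1a (0.16) and Slc25a23 (0.16), Lgals2 to Usp40 (0.057) and Sh3bp1 (0.064), and Lgals8 to Nhlrc3 (0.014) and Kmt2c (0.039). Among the galectins themselves the closest pair was Lgals2 and Lgals8 (0.48) and the farthest Lgals1 and Lgals3 (4.62), with Lgals3 and Lgals4 at 1.31.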

How the data were processed

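RNA from gastric corpus mucosa of 2 wild-type and 2 Muc6 knockout samples was sequenced. The library kit was a stranded mRNA one, per the labels' protocols, and mm10 was the build, per the submitters' processing notes. Which aligner, counting program and annotation were used is not stated in the sources used here. The authors deposited estimated counts, not normalized as far as the values show (35.0% of nonzero values were not whole), so these deposited expected counts were rounded. Of 34866 rows, 34582 matched GENCODE release M21 by identifier without version. Sequences come from RefSeq.

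Genotypes were compared with edgeR 4.0.16 in R 4.3.3 (robust quasi-likelihood fit, TMM factors, filterByExpr with a minimum of 10 counts), with Benjamini-Hochberg adjustment over all 14067 genes at 0.05. The SE is the size of the log2 fold change divided by the square root of the F statistic. CPM uses TMM-scaled library sizes, and length is the union of exons. DESeq2 1.42.0 and limma 3.58.1 (voom) were alternatives, as were other factors, filters, a block and leaving out libraries. The code was tested on simulated data. The 20895793 to 27946423 counts in wild type and 20327745 to 21717123 in knockout leave replicate spread, not counting, as the limit for the 6 galectins. Genes with few counts, such as B3gnt8, Havcr2 and Lgals7, are limited by counting as well. Libraries of a genotype were not duplicates (chi-square per degree of freedom of 139 and 272). Members and lists were chosen with earlier results of these data known. Named genes were the galectins, related genes, Muc6, the 3 members of each pathway list with the highest mean CPM (2 of marker lists) and the 2 nearest profiles. A marker list is not reported here. The genes called by DESeq2, Nkx6-3 and Havcr2 were named after their values were seen. So were Gast, Onecut2, Sst, Cdx1, Cdx2, Fabp1, Cdh17 and Jchain.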

Additional observations from a re-analysis of the deposited data

How the results depend on the processing

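The direction of Lgals1, Lgals3, Lgals4 and Lgals8 was the same in all 14 other fits. Outside the fits that left out a library, the log2 fold change ran from 2.59 to 2.69 for Lgals3, from 1.29 to 1.45 for Lgals4, from -1.25 to -0.82 for Lgals1 and from -0.40 to -0.31 for Lgals8. With a library left out Lgals8 ran from -0.56 to -0.16. The number of genes past the threshold was 9 without a filter and 1044 by DESeq2, against 0, and ran from 0 to 851 when a library was left out, 9 without knockout 1 and 851 without knockout 2. The number of galectins past it was 1 by DESeq2 (Lgals3) and ran from 0 to 2 when a library was left out, being 2 without knockout 2 (Lgals1 and Lgals3), where 851 of 14672 genes passed and wild type alone gave the spread. The adjusted p of Lgals3 ran from 2.0e-05 to 0.738 over these fits. Lgals2 lay near 0 and changed sign under limma voom (0.015), upper-quartile factors (0.0069), libraries scaled by size with the 20 most abundant genes left out (0.062) and the replicate block (0.0073), and ran from -0.25 to 0.27 with a library left out (0.27 without wild type 1, 0.046 without knockout 1). Lgals9 changed sign without wild type 1 and ran from -0.98 to 0.035. The cause of these changes was not tested.

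The sample numbers are only names in the labels. Deviations of same-numbered libraries from their group means correlated at 0.517 across genes. With the number as a block, 0 genes passed and Lgals3 was at 2.59 ± 0.17 (edgeR adjusted p = 0.0955). The bias-adjusted deviance, added after seeing the data, left 0 genes past the threshold. With the longest transcript as length, 3 of 12 mean levels moved by more than their SD, Lgals4 in wild type to 225 CPM per kilobase and Lgals8 to 15.4 in wild type and 12.0 in knockout. The planned sum of Lgals4 with its copy Lgals6 was not run, since no row of the count table was matched to Lgals6. Whether reads from such a copy were counted to Lgals4 cannot be told.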
